A study of Mus musculus with 12 samples.

Results

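The genes described here are 10 members of the Krüppel-like factor family, Klf2, Klf3, Klf4, Klf5, Klf6, Klf7, Klf9, Klf10, Klf11 and Klf13. They were taken by name from a list, with no rule on their values. The list was chosen with earlier results of these data known. All were found by identifier in both deposited count tables, among 16386 genes for PSC4 cells and 15309 for KPC4 cells. PSC4 is a mouse pancreatic stellate line, grown from a stromal cell type that lays down matrix once activated, and KPC4 is a mouse line of pancreatic adenocarcinoma cells. KPC4 cells received vehicle or 10 µM gemcitabine, a nucleoside analogue used as chemotherapy, for 6 h, and after a wash their starvation medium of the next 14 h served as Control-SU or Gem-SU, in which PSC4 cells stayed for 24 h. For the second step, PSC4 cells spent 6 h in Control-SU or Gem-SU and were washed. They then conditioned new starvation medium for 18 h (Control-PSC-SU or Gem-PSC-SU), in which recipient KPC4 cells were kept for 24 h. Total RNA was sequenced from 3 biological replicates of each of the 4 groups. Each cell type is represented by 1 line, all recipient cells were in conditioned starvation medium, the line differs together with the step of transfer, and any drug carried in a supernatant cannot be told apart from what the donor cells released.

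Krüppel-like factors are transcription factors with a shared zinc finger domain at the carboxy terminus that binds GC-rich and CACCC-containing sites in promoters, and they compete there with the related Sp factors. The parts outside the fingers differ. Klf2, Klf4, Klf5, Klf6 and Klf7 mostly activate through acetyltransferases, Klf3 recruits the co-repressor CtBP, and Klf9, Klf10, Klf11 and Klf13 recruit the co-repressor Sin3. In the pancreas the family is known for Klf5, which supports ductal metaplasia and tumour growth, for Klf4, a factor of epithelial differentiation and cell cycle arrest that also takes part in reprogramming, and for Klf11, a regulator of the insulin gene. Klf6 is well known from stellate cells of the liver, where it is induced on activation. Several members are early response genes whose transcripts are made and lost within hours.

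The upstream sequences show what the promoters of these genes have in common with each other and with other promoters. RefSeq entries (GRCm38.p6) for the 250 bases before the start site were at hand for 8 of the 10 genes, and Klf5 and Klf10 are only named. Searched on both strands were the KLF site core CCACCC, the AP-1 site TGANTCA, the cyclic AMP response element TGACGTCA, the SMAD site core CAGAC, the E-box CACGTG, the TATAAA box, the serum response CArG element and the MEF2 site. The MEF2 site was added after the Klf2 sequence had been read. The promoters of 6 genes are printed 5′ to 3′ in the direction of the gene, and capitals mark every match to these letters, none of which overlaps another. Klf4 (chr4:55532476-55532725, minus strand), Klf6 (chr13:5861239-5861488, plus strand) and Klf11 (chr12:24651121-24651370, plus strand) are shown for the E-box. Klf9 (chr19:23140976-23141225, plus strand) is shown for its AP-1 letters, Klf13 (chr7:63938916-63939165, minus strand) for a CCACCC core near the start, and Klf2 (chr8:72318812-72319061, plus strand) for its MEF2 letters.
Klf4: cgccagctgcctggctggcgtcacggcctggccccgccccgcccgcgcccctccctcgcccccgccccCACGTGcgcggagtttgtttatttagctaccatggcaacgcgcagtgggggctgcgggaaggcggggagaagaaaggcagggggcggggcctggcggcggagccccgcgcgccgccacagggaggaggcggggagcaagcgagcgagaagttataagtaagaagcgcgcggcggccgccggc
Klf6: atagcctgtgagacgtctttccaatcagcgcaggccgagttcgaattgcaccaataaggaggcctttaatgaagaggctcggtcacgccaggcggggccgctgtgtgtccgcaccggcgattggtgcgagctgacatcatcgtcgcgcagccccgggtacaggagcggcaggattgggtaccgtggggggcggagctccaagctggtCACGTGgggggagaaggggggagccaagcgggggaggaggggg
Klf11: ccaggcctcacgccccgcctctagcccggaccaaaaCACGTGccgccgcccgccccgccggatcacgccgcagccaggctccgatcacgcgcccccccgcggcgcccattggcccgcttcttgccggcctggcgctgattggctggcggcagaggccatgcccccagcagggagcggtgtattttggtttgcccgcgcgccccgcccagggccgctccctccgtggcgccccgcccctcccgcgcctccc
Klf9: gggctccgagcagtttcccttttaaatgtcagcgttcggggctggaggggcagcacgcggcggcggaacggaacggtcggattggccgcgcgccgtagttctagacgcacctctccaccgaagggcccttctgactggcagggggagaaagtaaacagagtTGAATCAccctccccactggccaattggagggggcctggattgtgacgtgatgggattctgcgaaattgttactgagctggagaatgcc
Klf13: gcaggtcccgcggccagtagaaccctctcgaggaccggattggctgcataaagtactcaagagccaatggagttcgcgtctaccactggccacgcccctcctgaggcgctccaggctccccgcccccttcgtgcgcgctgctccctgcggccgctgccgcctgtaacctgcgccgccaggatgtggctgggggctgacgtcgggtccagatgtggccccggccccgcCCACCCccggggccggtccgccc
Klf2: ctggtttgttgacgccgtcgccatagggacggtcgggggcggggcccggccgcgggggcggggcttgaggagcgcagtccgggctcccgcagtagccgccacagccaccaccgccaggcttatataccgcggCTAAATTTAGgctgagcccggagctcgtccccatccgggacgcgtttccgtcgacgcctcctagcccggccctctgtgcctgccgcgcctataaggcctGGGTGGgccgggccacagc

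The E-box was found in 3 of the 8 promoters, where 6.02% of 32851 RefSeq promoters of this length hold it. Counted from the start site, it lies at -182 to -177 in Klf4, at -43 to -38 in Klf6 and at -214 to -209 in Klf11. CCACCC was found in 4 of 8 (Klf2, Klf3, Klf7 and Klf13) against 28.1% of all promoters, and CAGAC in 1 of 8 (Klf3) against 42.2%. The AP-1 letters stand in Klf9 alone of the 8, at -89 to -83, against 6.75% of all promoters, and the MEF2 letters in Klf2 alone, at -118 to -109, against 2.92%. TGACGTCA, TATAAA and the CArG element were found in 0 of the 8 windows and in 1.55%, 12.4% and 1.47% of all promoters. The 8 windows were between 59.2% and 78.4% G or C, where the median of all promoters was 52.4%. A match describes letters only and no binding was measured.

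Library totals ran from 29559414 to 38138356 counts in PSC4 and from 26354328 to 34744150 in KPC4. All 10 genes passed the filter on low counts in both lines. Their lowest count was 275 in PSC4 (Klf5) and 156 in KPC4 (Klf2), at which counting alone gives a relative error of 6.03% and 8.01%. The summed markers of both cell types stood where the labels put them, with exceptions among single genes. Of 10 stellate or fibroblast markers, 9 were measured in PSC4, led by Col1a1 (3380 ± 513 CPM, SD, n = 3) with Acta2 at 15.6 ± 2.796 and Des at 2.83 ± 0.147 CPM, and summed to between 6683 and 7503 CPM with Control-SU. Of 8 epithelial markers, 7 were measured in KPC4 and summed to between 5972 and 7416 CPM with Control-PSC-SU. Epcam (8.90 ± 5.67 CPM) and Cldn4 (1.27 ± 0.931 CPM) were the lowest of them. KPC4 also held Vim at 2593 ± 194 CPM, above the 1666 ± 355 CPM of PSC4 with Control-SU, each scaled within its line. Vim made up most of the KPC4 stellate marker sum of 2419 to 2814 CPM. Leukocyte and endothelial markers summed to at most 4.94 and 3.71 CPM in any library. CPM here are counts per unit of library size, corrected by TMM, a factor per library that aligns the bulk of the genes. The libraries farthest from their group mates were KPC4 Gem-PSC-SU replicates 2 and 1, at a root mean square distance of 0.835 and 0.830 in log2 CPM, with all other libraries between 0.590 and 0.797.

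**Figure D1:**
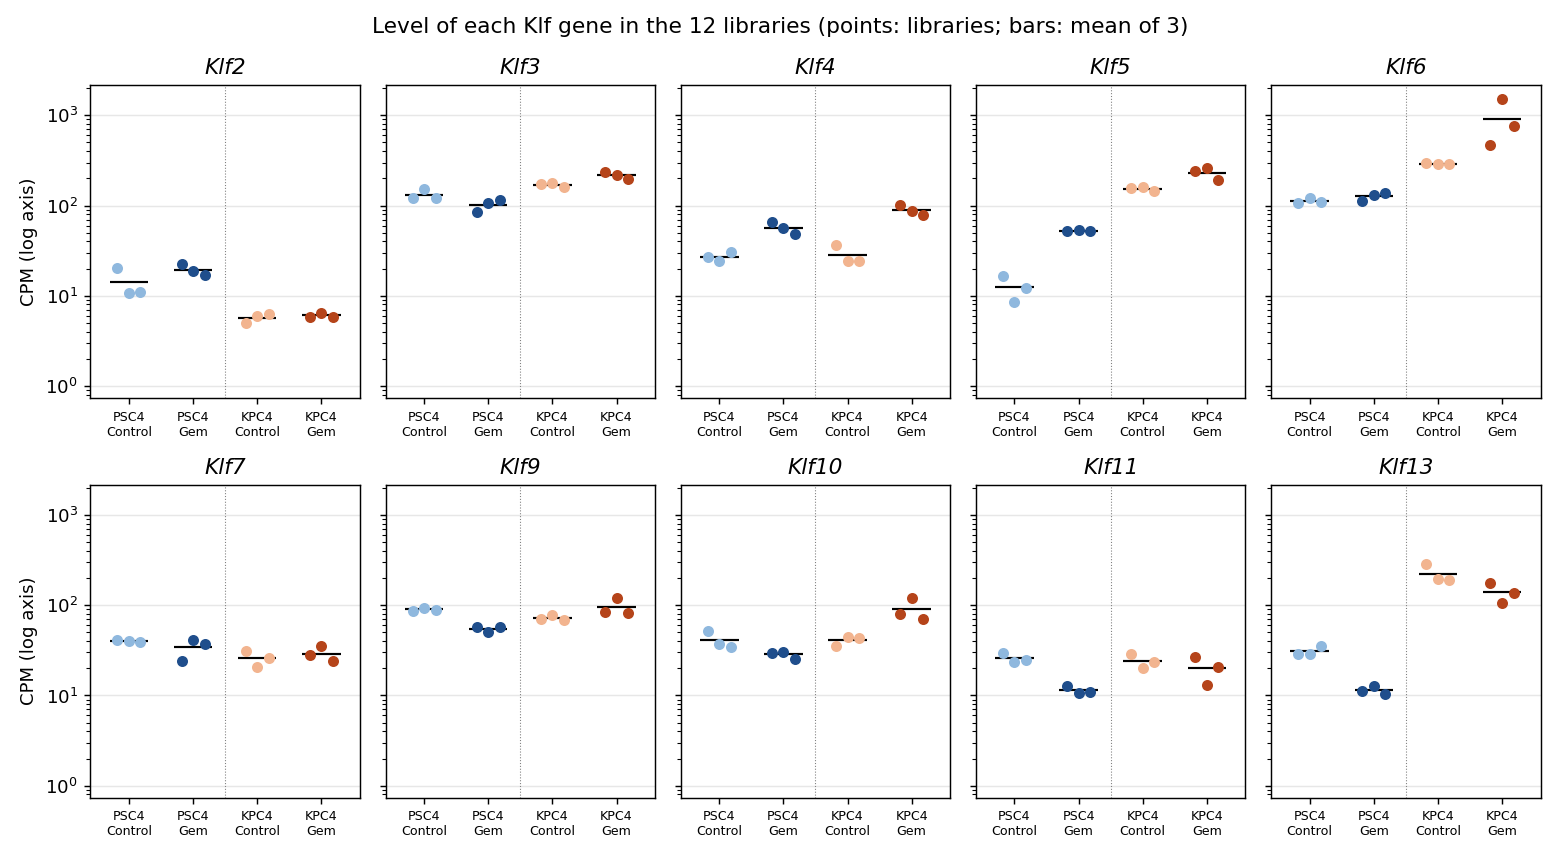
Each panel plots 1 Klf gene, with CPM on a log axis against the 4 groups. Points are the 3 libraries of a group and the bar is their mean. Klf5 and Klf13 sit far lower in PSC4 than in KPC4 controls, and Klf6 has 1 KPC4 Gem-PSC-SU library at 1511 CPM.

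Under control supernatants the lines differed most in Klf5 and Klf13, both lower in PSC4. To compare lines, CPM was scaled over all 12 libraries. Klf5 (ENSMUSG00000005148), known as a factor of proliferating epithelium, averaged 12.4 ± 4.003 CPM (SD, n = 3) in PSC4 and 159 ± 8.49 CPM in KPC4, a 12.3-fold higher level in KPC4 (log2 difference, PSC4 minus KPC4, -3.62, SE 0.23, edgeR quasi-likelihood, adjusted p = 2.74e-08). Klf13 (ENSMUSG00000052040), a regulator of lymphocyte and heart genes, averaged 30.8 ± 4.06 CPM in PSC4 and 231 ± 55.1 CPM in KPC4, 7.21-fold higher in KPC4 (edgeR, adjusted p = 3.65e-07). Klf6 (ENSMUSG00000000078), a stellate cell and tumour suppressor factor, averaged 112 ± 7.44 and 301 ± 2.796 CPM, 2.58-fold higher in KPC4 (edgeR, adjusted p = 0.00211). In each of them the highest PSC4 control lay below the lowest KPC4 control. The share of all genes with control groups apart in this way was not counted.

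Klf2 (ENSMUSG00000055148), a factor of quiescence in endothelium and lymphocytes, was the opposite case, with 13.99 ± 5.54 CPM (SD, n = 3) in PSC4 and 5.92 ± 0.742 CPM in KPC4, 2.45-fold higher in PSC4 (edgeR, adjusted p = 0.00119). Klf7 (ENSMUSG00000025959), known from axon growth, was 1.55-fold higher in PSC4 (edgeR, adjusted p = 0.0354), a call lost without the low-count filter (adjusted p = 0.0569) and without any 1 of 5 control libraries, namely PSC4 Control-SU replicates 1, 2 and 3 (0.0805, 0.102 and 0.0966) and KPC4 Control-PSC-SU replicates 2 and 3 (0.127 and 0.0927), with 0.0132 as the lowest over all alternatives. The other 5 genes did not pass. Their log2 differences, PSC4 minus KPC4, were -0.38 for Klf3, -0.070 for Klf4, 0.31 for Klf9, 0.0029 for Klf10 and 0.095 for Klf11. Klf3 passed without PSC4 Control-SU replicate 2 (-0.55, adjusted p = 0.0290; up to 0.221 over the alternatives). In all 5 of 10 passed, 2 higher and 3 lower in PSC4, where 42.9% of 13632 genes tested passed (22.3% higher and 20.6% lower), so that the share of Klf genes was near the background.

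Per length, Klf6 was the most abundant of the 10 in every group. Levels between genes were set in CPM per kb of the longest coding transcript. In control PSC4 the order ran from Klf6 at 26.7 ± 1.93 CPM per kb (SD, n = 3) and Klf3 at 25.2 ± 3.47, whose libraries overlapped, through Klf9 at 20.02 ± 0.825, Klf10 at 13.6 ± 3.21 and Klf4 at 8.95 ± 1.07. Then came Klf2 at 7.59 ± 2.96, Klf11 at 6.35 ± 0.778, Klf7 at 5.26 ± 0.149, Klf13 at 4.84 ± 0.637 and, at the end, Klf5 at 3.72 ± 1.18. Klf4, Klf2 and Klf11 overlapped from neighbour to neighbour in this order, as did Klf7, Klf13 and Klf5. In control KPC4 the order began with Klf6 at 68.7 ± 0.856, followed by Klf5 at 45.8 ± 2.51, Klf13 at 34.8 ± 8.43 and Klf3 at 32.7 ± 1.43. It went on with Klf9 at 16.2 ± 1.25, Klf10 at 13.5 ± 1.697, Klf4 at 9.39 ± 2.35, Klf11 at 5.94 ± 1.103 and Klf7 at 3.39 ± 0.687, and ended with Klf2 at 3.09 ± 0.377. Klf5, Klf13 and Klf3 overlapped from neighbour to neighbour there, as did Klf10 with Klf4 and Klf7 with Klf2. With the length of all exons of a gene in place of that transcript, Klf6 still came first in every group, Klf3 moved from place 2 to 3 in control PSC4 and stayed at place 4 in control KPC4, and Klf5 and Klf13 changed places in control KPC4.

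After exposure to the medium of gemcitabine-treated tumour cells, PSC4 cells carried more Klf5 and Klf4 and less Klf13, Klf11, Klf9 and Klf10 mRNA. Klf5 rose 4.21-fold and Klf4 2.09-fold, and Klf13 fell 2.72-fold and Klf11 2.29-fold. By the textbook roles above, a grouping made after the values were seen, 2 of the 5 activators rose and 0 fell, while the 4 Sin3-binding repressors fell, Klf10 only just past the threshold (edgeR, adjusted p = 0.0479) and with its call lost under 5 of 12 alternatives. Without Control-SU replicate 1 its log2 change was -0.34. The grouping covers only the 10 listed genes. Of the Klf genes tested outside them, Klf8, a CtBP-binding repressor, rose by 1.61 (edgeR, adjusted p = 0.00936). Klf16 (log2 change 0.94, edgeR, adjusted p = 0.0873) and Klf12 (-0.56, 0.125) did not pass. With the replicate block both passed, Klf16 higher (edgeR, adjusted p = 0.00609) and Klf12 lower (0.0176). In all 6 of 10 genes passed the threshold, 2 higher and 4 lower, where 46.3% of 13347 genes passed (24.3% higher and 22.0% lower), so that the count itself is close to the background. The median log2 change was -0.31 over the 10 genes and -0.0032 over all genes tested. RNA of a culture was measured as a whole, so that fewer cells of a kind and less RNA per cell cannot be told apart.

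Klf5 stood at 16.5, 8.63 and 12.3 CPM in the Control-SU libraries and at 52.7, 53 and 52.3 CPM in the Gem-SU libraries. The groups were far apart and the Gem-SU libraries nearly equal. Its log2 change was 2.07 (SE 0.23, 95% interval 1.54 to 2.603, edgeR quasi-likelihood, adjusted p = 3.09e-04). Of 8 epithelial markers 4 were measured in PSC4, and of these only Krt19 had groups that did not overlap, with 2.94 ± 0.802 CPM (SD, n = 3) under Control-SU and 7.66 ± 1.31 CPM under Gem-SU. Krt7 averaged 1.504 ± 1.07 and 3.27 ± 1.65 CPM, while Krt8 (0.515 ± 0.407 and 0.657 ± 0.187) and Krt18 (0.182 ± 0.0941 and 0.212 ± 0.199) differed by less than their SD. The 4 markers summed to between 3.50 and 5.96 CPM with Control-SU and between 10.2 and 14.9 CPM with Gem-SU, against 5972 CPM or more in control KPC4, and their part in the Klf5 result was not tested. Klf5 with Gem-SU remained below every control KPC4 library, which held 155, 161 and 144 CPM.

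Klf4 was counted at 26.7, 24.1 and 30.5 CPM with Control-SU and at 66.2, 56.2 and 48.1 CPM with Gem-SU. Every Gem-SU library lay above every control library, and the log2 change was 1.06 (SE 0.17, 95% interval 0.67 to 1.46, edgeR, adjusted p = 0.00155). The remaining activators did not pass. Klf2, which the ERK5 kinase and MEF2 factors are known to induce, stood at 20.3, 10.7 and 11.1 CPM with Control-SU and at 22.5, 18.9 and 16.8 CPM with Gem-SU. Control replicate 1 lay among the Gem-SU libraries. The log2 difference of Klf2 was 0.46 (95% interval -0.16 to 1.08, edgeR, adjusted p = 0.197), and without that control library it was 0.82 (adjusted p = 0.0231; 0.0231 to 0.518 over the alternatives). Klf6 stood at 107, 122 and 109 CPM and at 114, 132 and 139 CPM, overlapping, with a log2 difference of 0.18 (95% interval -0.15 to 0.50, adjusted p = 0.333). Klf7 stood at 41.2, 40.6 and 39.01 CPM and at 24.4, 41.5 and 36.9 CPM. Its groups overlapped, with Gem-SU replicate 2 just above the controls, and the log2 difference was -0.24 (95% interval -0.71 to 0.23, adjusted p = 0.366).

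Among the repressors, Klf13 stood at 28.5, 28.7 and 35.6 CPM with Control-SU and at 11.2, 12.8 and 10.3 CPM with Gem-SU. The groups were far apart, and Klf13 fell by 1.44 on the log2 scale (SE 0.18, edgeR, adjusted p = 4.91e-04). Klf11 (ENSMUSG00000020653), 1 of the genes first found as induced early by TGF-beta, stood at 29.6, 23.7 and 24.5 CPM and at 12.7, 10.5 and 10.9 CPM. It was lower in every Gem-SU library and fell by 1.196 (SE 0.18, edgeR, adjusted p = 9.995e-04). Klf9 (ENSMUSG00000033863), a glucocorticoid and thyroid hormone target, stood at 86.5, 93.8 and 89.1 CPM and at 56.98, 50.8 and 57.2 CPM. Both groups were tight and apart, and Klf9 fell by 0.71 (SE 0.13, edgeR, adjusted p = 0.00252).

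Klf10 (ENSMUSG00000037465), the other early TGF-beta gene, stood at 52.4, 37.4 and 34.1 CPM with Control-SU and at 29.6, 30.5 and 25.6 CPM with Gem-SU. The groups did not overlap, but control replicate 1 stood well above the rest. Klf10 fell by 0.54 on the log2 scale (SE 0.19, edgeR, adjusted p = 0.0479), a call lost without the low-count filter (adjusted p = 0.0584), without Control-SU replicate 1 (-0.34, 0.186) and without Gem-SU replicate 1, 2 or 3 (0.0598, 0.106 and 0.140), with 0.0168 as the lowest over the alternatives. Klf3 (ENSMUSG00000029178), the CtBP-binding member, stood at 121, 153 and 121 CPM with Control-SU and at 84.2, 106 and 115 CPM with Gem-SU. Every Gem-SU library was below every control, yet Klf3 did not pass, with a log2 difference of -0.38 (95% interval -0.77 to 0.0079, edgeR, adjusted p = 0.0984). In all 7 of 10 genes had groups that did not overlap, 2 higher and 5 lower, against 56.2% of all genes (29.5% higher and 26.7% lower). The 9 stellate or fibroblast markers summed to between 2361 and 3519 CPM in the same Gem-SU libraries, below the control range given above. Of the 9, 7 were lower in every Gem-SU library than in any control, led by Col1a1, Vim and Col3a1, while Acta2 (26.9 ± 10.2 CPM, SD, n = 3) and Des (3.37 ± 1.29 CPM) had means above their control means, with overlapping groups. Their part in the Klf results was not tested.

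**Figure D2:**
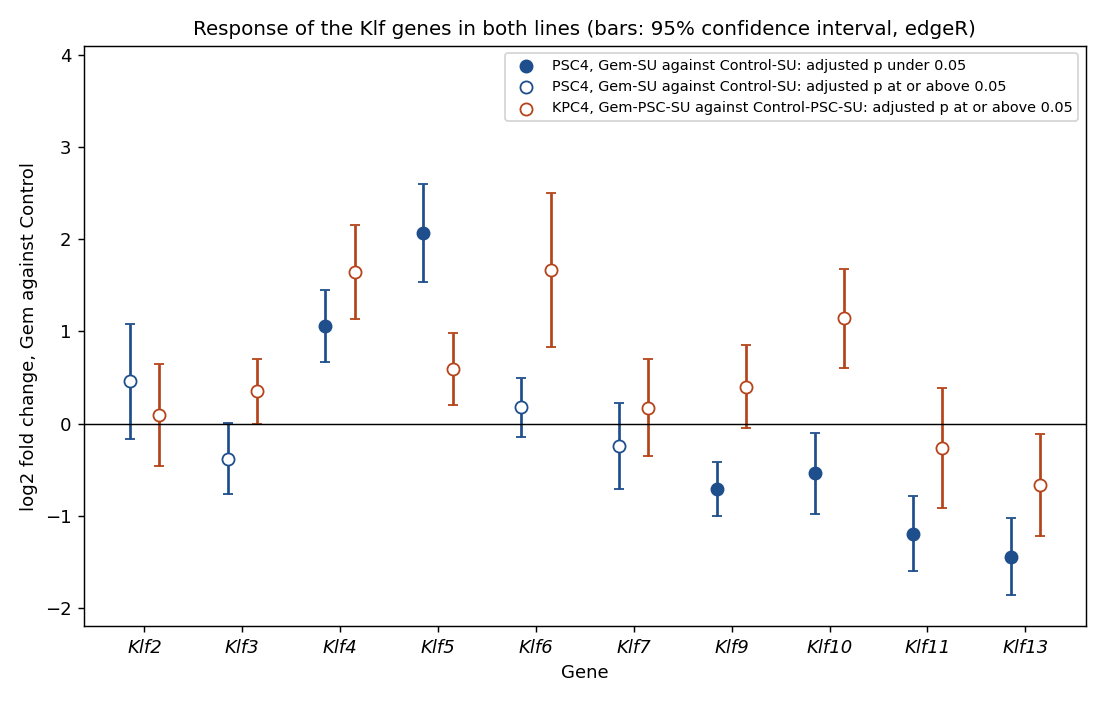
Points give the log2 fold change of each Klf gene with gemcitabine-derived against control supernatant, in PSC4 (blue) and KPC4 (orange), and bars the 95% confidence interval from edgeR. Filled points passed the adjusted threshold, which 6 genes did in PSC4 and 0 in KPC4. The points of Klf3, Klf7, Klf9 and Klf10 lie below 0 in PSC4 and above 0 in KPC4. The intervals of Klf3 and Klf7 include 0 in both lines, and that of Klf9 includes 0 in KPC4.

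In KPC4 cells kept in Gem-PSC-SU, Klf4, Klf6 and Klf10 stood 3.13-fold, 3.17-fold and 2.21-fold higher than with Control-PSC-SU, and Klf13 stood 1.59-fold lower. None of the 10 genes passed the adjusted threshold in edgeR's quasi-likelihood test, where 0% of 13236 genes passed and the smallest adjusted p of any gene was 0.0863. At an unadjusted p under 0.05 there were 5 of 10 (Klf4, Klf5, Klf6, Klf10 and Klf13), against 17.0% of all genes. With the replicate number as a block the 5 passed after adjustment, 4 higher and 1 lower, against 8.85% of all genes (6.07% higher and 2.78% lower), and by DESeq2 Klf4, Klf6 and Klf10 passed, all higher, against 6.22% (5.30% higher). Groups did not overlap for 7 of 10 genes, 6 higher and 1 lower, against 22.9% of all genes (11.6% higher and 11.3% lower). The median log2 difference was 0.37 over the 10 genes and -0.019 over all genes. Leaving out 1 library gave between 0 and 3 of the 10, with 3 (Klf4, Klf6 and Klf10) without Gem-PSC-SU replicate 1, 1 (Klf4) without Control-PSC-SU replicate 2 and 0 without any of the others. Over the 12 alternatives the adjusted p ran from 3.47e-08 to 0.509 for Klf4, from 4.96e-04 to 0.509 for Klf6, from 0.00107 to 0.509 for Klf10, from 0.0324 to 0.563 for Klf5 and from 0.0253 to 0.579 for Klf13.

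Klf4 stood at 36.6, 24.4 and 24.3 CPM in the Control-PSC-SU libraries and at 100.2, 86.1 and 79.4 CPM in the Gem-PSC-SU libraries. All Gem-PSC-SU libraries were far above all controls, by a log2 difference of 1.64 (SE 0.22, 95% interval 1.14 to 2.15, edgeR, adjusted p = 0.106), and with the replicate block the difference was 1.67 (adjusted p = 0.00105). Klf6 stood at 294, 290.5 and 286 CPM and at 474, 1511 and 765 CPM. The controls were nearly equal and the Gem-PSC-SU libraries spread widely, all above the controls. The log2 difference of Klf6 was 1.67 (SE 0.37, edgeR, adjusted p = 0.119), a 3.17-fold level that was 2.83-fold with the block (adjusted p = 0.0467). It was 1.099 on the log2 scale without Gem-PSC-SU replicate 2, the library with the highest value.

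Klf10 stood at 35.2, 44.6 and 43.6 CPM with Control-PSC-SU and at 79.6, 121 and 70.9 CPM with Gem-PSC-SU. Replicate 2 was again the highest, and the groups were apart, by 1.14 on the log2 scale (SE 0.24, edgeR, adjusted p = 0.115) and by 1.11 with the block (adjusted p = 0.0108). Klf5 stood at 155, 161 and 144 CPM and at 240.2, 260.2 and 191 CPM. Its log2 difference was 0.59 (SE 0.17, edgeR, adjusted p = 0.167), and 0.58 with the block (adjusted p = 0.0324), so that the gene with the highest fold in PSC4 stood 1.51-fold higher in KPC4, from a far higher start. Klf13 stood at 285, 194 and 189 CPM and at 176, 107 and 137 CPM. It was lower in every Gem-PSC-SU library, by a log2 difference of -0.67 (SE 0.24, edgeR, adjusted p = 0.227) and of -0.67 with the block (adjusted p = 0.0253).

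The other 5 genes passed neither with nor without the block. Klf3 stood at 172, 177 and 162 CPM and at 237, 216 and 196 CPM, and Klf9 at 69.8, 78.98 and 68.7 CPM and at 84.5, 119.7 and 81.96 CPM. Both were higher in every Gem-PSC-SU library than in any control, by 0.35 (95% interval -0.0066 to 0.70) and 0.40 (-0.049 to 0.85) on the log2 scale, with adjusted p of 0.301 and 0.344 in edgeR. Klf2 stood at 4.93, 5.91 and 6.28 CPM and at 5.86, 6.49 and 5.87 CPM. Klf7 stood at 31.3, 20.7 and 25.8 CPM and at 27.99, 35.1 and 24.3 CPM. Klf11 stood at 29.2, 20.4 and 23.2 CPM and at 26.5, 13.02 and 20.8 CPM. In these 3 genes the groups overlapped, and the 95% intervals of the log2 difference were -0.46 to 0.65 for Klf2, -0.35 to 0.70 for Klf7 and -0.91 to 0.39 for Klf11. Epithelial markers in KPC4 summed to between 5945 and 7402 CPM with Gem-PSC-SU, a range that overlaps the controls. The 5 stellate markers measured there, mostly Vim, summed to between 1842 and 2201 CPM with Gem-PSC-SU, below the controls, and their part in the Klf values was not tested.

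The responses themselves were compared as the PSC4 change minus the KPC4 change in 1 fit over all 12 libraries. The changes of Klf10 and Klf9 differed between the lines by -1.72 (SE 0.31, edgeR, adjusted p = 0.00493) and -1.16 (SE 0.23, adjusted p = 0.00792). Both fell in PSC4. In KPC4 the log2 difference was 1.14 for Klf10, which passed there with the block and by DESeq2, and 0.40 for Klf9, which passed by neither and whose interval included 0, so that a change of opposite sign is not shown for Klf9. Klf6 differed by -1.53 (SE 0.42, adjusted p = 0.0364), and Klf5, with the greater change in PSC4, by 1.43 (SE 0.29, adjusted p = 0.00964). These made 4 of 10 genes past the threshold, 1 higher and 3 lower, against 9.85% of 13632 genes (4.75% higher and 5.10% lower). Klf4, with positive log2 values in both lines, had a difference of -0.64 (95% interval -1.25 to -0.017, adjusted p = 0.185). Klf13, with negative values in both, had -0.83 (95% interval -1.51 to -0.16, adjusted p = 0.112).

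Klf3 had a difference of -0.78 (edgeR, adjusted p = 0.0532), Klf11 of -0.99 (0.0991), Klf7 of -0.46 (0.389) and Klf2 of 0.31 (0.6299). With the replicate block 7 of 10 genes passed, Klf3 (-0.78, adjusted p = 0.0157), Klf11 (-0.94, 0.0212) and Klf13 (-0.82, 0.0199) being added, against 21.9% of all genes. That block pairs libraries by number in PSC4 too, where the values did not pair them (correlations 0.428, -0.055 and 0.102). By DESeq2 5 of 10 passed, with Klf3 added (adjusted p = 0.0237), against 15.7% of all genes. Without KPC4 Gem-PSC-SU replicate 2 the same 3 genes were added, with adjusted p of 0.0483, 0.0163 and 0.0357. Over the 17 alternatives the adjusted p reached up to 0.126, 0.1997 and 0.2396 for these genes. The call for Klf6 was lost without any 1 of 10 libraries, all but KPC4 Gem-PSC-SU replicates 1 and 2, with adjusted p from 0.0526 to 0.0818. Without KPC4 Gem-PSC-SU replicate 2 the difference in Klf6 was -0.99.

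The Klf transcripts of a library were also read as a pool, each gene as its share of the summed CPM per kb of the 10. In PSC4 the sum was 127, 123 and 117 CPM per kb with Control-SU and 123, 127 and 126 with Gem-SU. The sums overlapped while the make-up differed. Klf5 made up 3.04% ± 0.8997 (SD, n = 3) of the pool with Control-SU and 12.5% ± 0.207 with Gem-SU, and Klf4 7.35% ± 1.15 and 14.98% ± 2.58. Klf9 made up 16.4% ± 1.04 and 9.78% ± 0.771, and Klf13 3.98% ± 0.701 and 1.42% ± 0.144. In KPC4 the sum was 246, 232 and 222 with Control-PSC-SU and 348, 599 and 376 with Gem-PSC-SU, higher in every Gem-PSC-SU library. Klf6 made up 29.5% ± 1.195 of the KPC4 pool with Control-PSC-SU and 46.7% ± 13.8 with Gem-PSC-SU, and Klf13 14.8% ± 2.82 and 5.46% ± 2.57. In the order of levels per kb with Gem-SU, Klf6 at 30.3 ± 3.11 was followed by Klf3 at 19.5 ± 3.01, Klf4 at 18.8 ± 2.996, Klf5 at 15.7 ± 0.109 and Klf9 at 12.3 ± 0.807. Klf2 at 10.5 ± 1.54, Klf10 at 9.38 ± 0.859, Klf7 at 4.47 ± 1.16, Klf11 at 2.78 ± 0.279 and Klf13 at 1.79 ± 0.196 closed it, and Klf3 overlapped Klf4, Klf9 overlapped Klf2 and Klf2 overlapped Klf10. Klf5 was thus at place 10 in control PSC4 and at place 4 with Gem-SU, apart from its neighbours Klf4 and Klf9, which lay on either side. The gap to Klf4 was narrow, with Klf5 at most 15.81 and Klf4 at least 15.88 CPM per kb. With the length of all exons Klf5 was at place 5 and overlapped its neighbours Klf2 and Klf3. With Gem-PSC-SU the order in KPC4 was Klf6 at 217 ± 127, Klf5 at 68.8 ± 10.6 and Klf3 at 41.4 ± 3.903, then Klf10 at 29.7 ± 8.72, Klf4 at 29.2 ± 3.496, Klf13 at 21.9 ± 5.44 and Klf9 at 21.3 ± 4.71, overlapping from Klf3 to Klf9. Klf11 at 4.93 ± 1.66, Klf7 at 3.801 ± 0.713 and Klf2 at 3.29 ± 0.197 overlapped at the end. With the length of all exons Klf3 came at place 6 in both treated groups. Shares of 1 pool depend on each other, and no test was made on them.

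**Figure D3:**
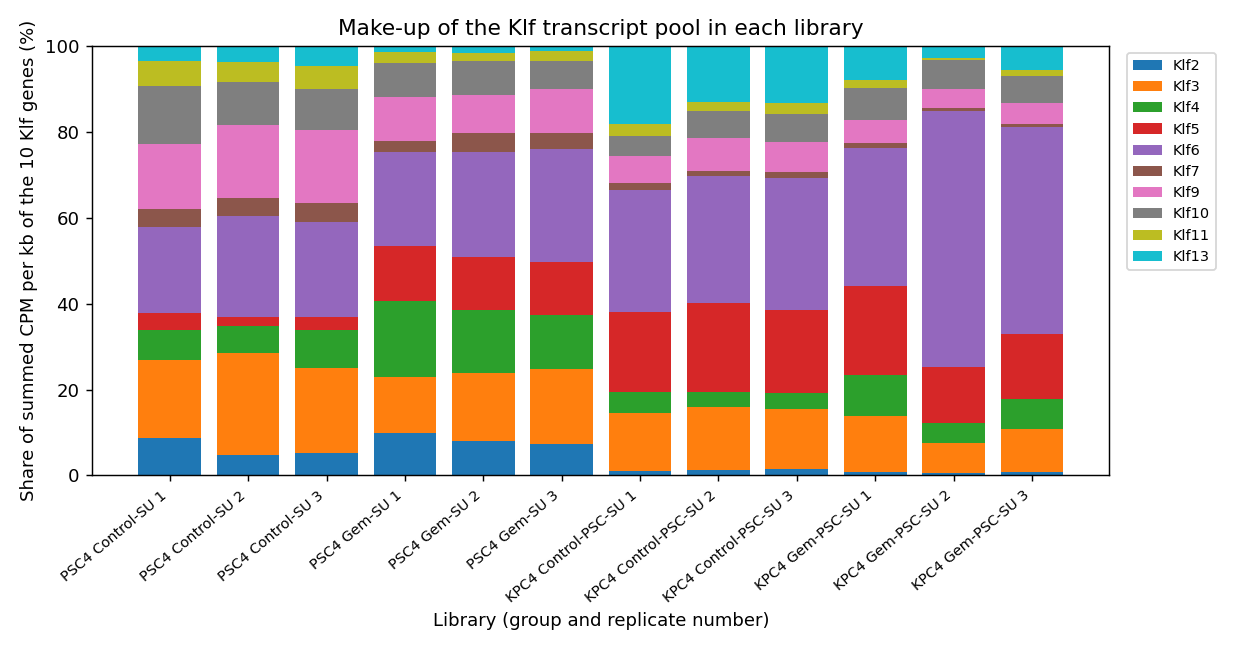
Bars are the 12 libraries, and segments the share of each Klf gene in the summed CPM per kb of the 10 genes, in percent. The Klf4 and Klf5 segments are wider in the Gem-SU than in the Control-SU libraries of PSC4, and the Klf6 segment reaches 59.7% in KPC4 Gem-PSC-SU replicate 2.

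Genes around the family were read from 6 lists, whose counts in PSC4 stand beside the 46.3% of all genes that passed there (24.3% higher and 22.0% lower). Of 16 other Klf and Sp genes, 8 were tested, and in PSC4 2 rose and 1 fell, no more than that share. Sp6, a factor of epithelial and tooth development, went from 0.395 ± 0.351 CPM (SD, n = 3) with 1 library at 0 to 8.46 ± 1.597 CPM (edgeR, adjusted p = 0.00208), and Klf8, a CtBP-binding repressor, from 1.798 ± 0.521 to 5.51 ± 2.06 CPM (log2 change 1.61, edgeR, adjusted p = 0.00936). Sp1, a widely expressed competitor at GC-rich sites, fell by 0.997 on the log2 scale (adjusted p = 0.00145). Of 13 cofactors and ubiquitin ligases of KLF proteins, 3 rose and 2 fell, again no more than the share of all genes. Fbxw7, a ubiquitin ligase subunit known to mark Klf5 protein for decay, rose by 1.005 (adjusted p = 0.00109), and Hdac1 and Sin3b rose by 0.53 and 0.37. The co-repressor Sin3a fell by 0.88 (adjusted p = 0.00119), and the acetyltransferase Kat2b fell by 0.79. A link of these cofactors to the levels of the Klf genes was not tested. List medians in PSC4 were 0.16 and 0.26, beside -0.0032 over all genes.

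Of 7 genes of the ERK5 and MEF2 branch, the known route to Klf2, 2 rose and 1 fell in PSC4, where 46.3% of all genes passed. Mef2a rose by 0.999 (edgeR, adjusted p = 0.00608), Map3k3 by 0.77, and Mef2c fell by 0.65. Of 12 genes of TGF-beta signalling, its ligands, receptors and SMADs listed together with early response genes, 3 rose and 3 fell, near the same share. The feedback inhibitor Smad7 rose from 6.53 ± 1.84 to 43.2 ± 6.32 CPM (SD, n = 3; log2 change 2.72, edgeR, adjusted p = 1.30e-04), Skil by 1.15 and the receptor Tgfbr1 by 0.51, while the partner receptor Tgfbr2 fell by 1.03, Pmepa1 by 1.24 and Tgfb3 by 0.51. Of the early TGF-beta genes among the Klf factors, Klf11 fell in these libraries, and Klf10 did so with the call near the threshold given above. Of 8 genes of the glucocorticoid response 7 were tested, and Dusp1 and Fkbp5 rose by 2.29 and 0.58 while Per2 and Tsc22d3 fell by 1.81 and 1.07, beside the fall of Klf9, 4 of 7 against the same 46.3%. The medians of these 3 lists in PSC4 were -0.15, -0.18 and -0.073.

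Of 11 genes known as targets of Klf factors, 6 rose and 3 fell in PSC4, against 24.3% higher and 22.0% lower of all genes, with a list median of 1.38. The list was chosen with earlier results of these data known and mixes targets of several Klf factors. Whether Klf factors had a part in these changes was not tested. The cell cycle inhibitor Cdkn1a, which Klf4 and Klf6 are known to activate and which many other factors control, rose from 37.9 ± 8.502 to 951 ± 165 CPM (SD, n = 3; log2 change 4.64, edgeR, adjusted p = 1.93e-05). Tagln, an actin-binding protein of myofibroblasts, rose by 3.25 and the urokinase gene Plau by 2.17. S1pr1, the sphingosine phosphate receptor that Klf2 is known to induce in lymphocytes, fell from 459 ± 50.4 to 57.8 ± 18.02 CPM (log2 change -2.99, adjusted p = 7.43e-05). Thbd fell by 1.24. Eng fell by 0.80, only just past the threshold (edgeR, adjusted p = 0.0493), and did not pass with the replicate block (edgeR, adjusted p = 0.0629). In KPC4 none of the genes of the 6 lists passed without the block. With it 6 of 57 did (10.5%), close to the 8.85% of all genes that passed with the block. They are named here after their values were seen and were Dusp1 (4.502), Sgk1 (0.97) and Per1 (0.92) of the glucocorticoid list, Smad7 (0.84) and Pmepa1 (-0.69) of the TGF-beta list and Plaur (1.295) of the target list, with log2 differences in parentheses. The KPC4 list medians were -0.15, -0.14, 0.032, 0.053, 0.52 and 0.046 in the order of the lists here, beside -0.019 over all genes.

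**Figure D4:**
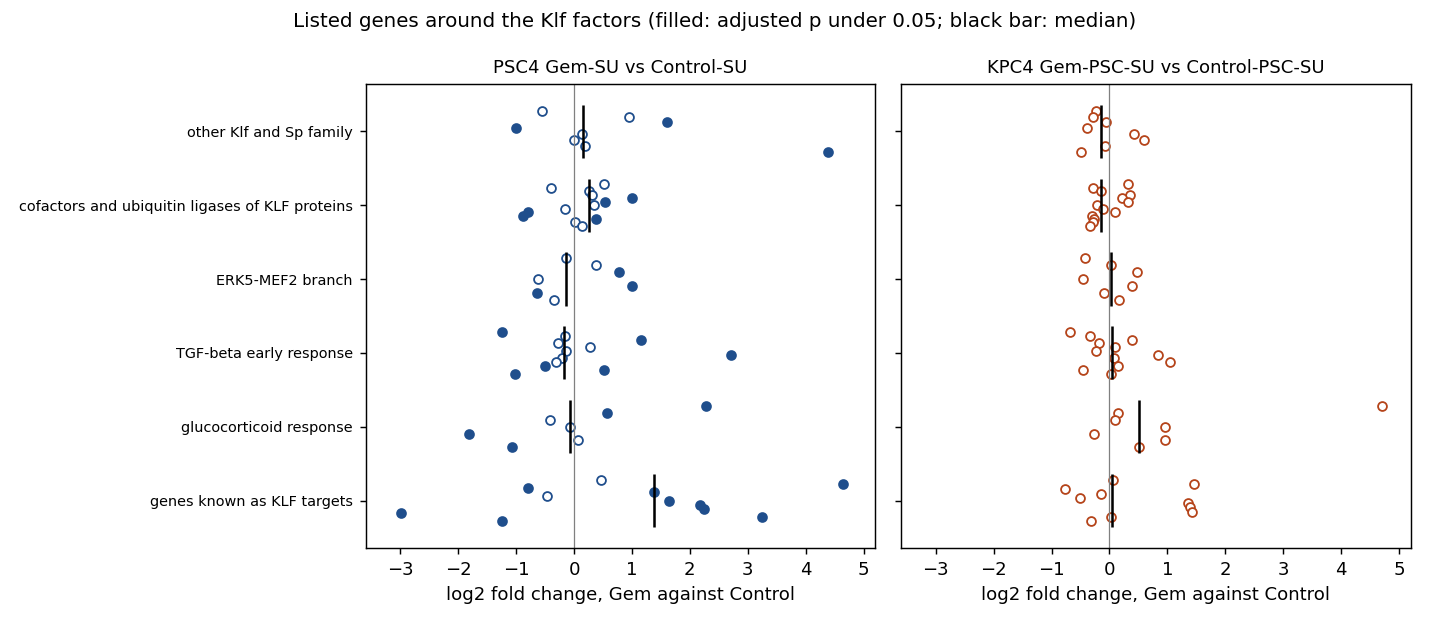
Points are the tested genes of 6 lists, placed by their log2 fold change in PSC4 (left) and KPC4 (right). Filled points passed the adjusted threshold of edgeR and black bars are list medians. The target list has a median of 1.38 in PSC4 and 0.046 in KPC4, and no KPC4 point is filled. The lists were chosen with earlier results of these data known.

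Over the 12 libraries, the genes most like Klf5, the Klf gene with the smallest p in PSC4, were Dusp4 (Pearson r = 0.992 of log2 CPM), Gprc5a (0.992) and Dusp6 (0.990). Dusp4 averaged 15.9 ± 3.297 and 46.4 ± 6.13 CPM (SD, n = 3) in PSC4 with Control-SU and Gem-SU, and 149 ± 9.56 and 207 ± 31.5 CPM in the KPC4 groups. Its order of groups is that of Klf5, which the choice by r over the same libraries favours and which adds no support. The genes most like Klf4, the Klf gene with the smallest p in KPC4, were Vmn1r1 (0.898), which stayed under 1 CPM in every group mean, Eif4a2 (0.895) and Ribc1 (0.888). Among the 10 genes themselves the highest r was 0.862, between Klf3 and Klf13, and the lowest was -0.948, between Klf2 and Klf13. These r take in the difference in level between the lines and do not measure a like response. In KPC4 the log2 differences of Klf3 and Klf13 were 0.35 and -0.67, neither past the threshold in the main fit. The 12 points share 2 lines and 4 groups, so that they are not independent of each other.

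In the authors' deposited table, 6 of the 10 genes had an adjusted p under 0.05 in PSC4, 2 higher and 4 lower, against 42.9% of its 15110 genes with a value. All 6 were also called from the counts here. In KPC4 the authors' deposited table had 3 of the 10, all higher, against 5.17% of 13791 genes, namely Klf4 (log2 fold change 1.63, adjusted p = 1.28e-07), Klf6 (1.79, 2.28e-04) and Klf10 (1.29, 0.00175), which were also the genes called by DESeq2 here. For Klf3 in PSC4 the authors' deposited table gives -0.10 (adjusted p = 0.828), where the deposited counts gave -0.38.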

How the data were processed

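RNA was sequenced from 12 cultures by a commercial provider, per the labels' protocols. The authors deposited 1 table of counts per gene and library for each line, whole numbers with Ensembl identifiers. Per the submitters' processing notes the tools were FastQC, Trim Galore 0.6.10, cutadapt 5.2, Salmon, R 4.5.1 and DESeq2 with build GRCm39. The notes give them no roles, so the deposited counts may be rounded estimates, and the annotation is not given in the sources used here. The authors' deposited comparison tables list per gene symbol a log2 fold change with its raw and adjusted p-value, and serve only as the authors' values. Every per-sample column was used (0 were set aside).

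Symbols and transcript lengths came from GENCODE M21, which named 16329 of 16386 PSC4 and 15265 of 15309 KPC4 identifiers. Overlapping and antisense genes are uncertain, since the use of strand is not stated. Groups followed the titles. Each line was analysed by itself, and the comparisons between lines in 1 fit over 12 libraries, with edgeR 4.0.16 in R 4.3.3 (filterByExpr, TMM, robust quasi-likelihood test, Benjamini-Hochberg adjustment over all genes tested, threshold 0.05). The standard error is the log2 change over the root of the F statistic. CPM is scaled to TMM-corrected totals, within a line unless said otherwise, and log2 CPM for likeness used a prior count of 2. Levels between genes were divided by the longest coding transcript, a length chosen after the files were seen. Library totals and counting error stand in the results. Within each group the replicates differed beyond counting noise (chi-square per degree of freedom at least 30.6).

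Same-numbered libraries deviated together in KPC4 (correlations 0.351, 0.436 and 0.211, each over 0.1), and the pairing of KPC4 libraries by number rests on these values alone. They do not pair the PSC4 libraries (0.428, -0.055 and 0.102). Alternatives were DESeq2 1.42.0, its size factors alone, the replicate block, no filter on low counts, a minimum of 10 counts in each library, 1 fit over 12 libraries and leaving out each library. The tests were tried on simulated counts. All 10 genes are described whatever their result. Of each list, up to 3 genes per direction with the smallest p were named, and for likeness the 3 genes with the highest r. The genes and lists were chosen with earlier results of these data known. A planned description of the proteins was not run, and 1 gene of the TGF-beta list is not reported here and was left out of that list's counts and median.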

Additional observations from a re-analysis of the deposited data

Results flagged for a closer look

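For 4 of the 10 genes the response to gemcitabine-derived medium differed between PSC4 and KPC4 by the test of the difference itself. As the PSC4 change minus the KPC4 change on the log2 scale, the difference was -1.72 for Klf10 (edgeR, adjusted p = 0.00493), -1.16 for Klf9 (0.00792), 1.43 for Klf5 (0.00964) and -1.53 for Klf6 (0.0364). Klf10, Klf9 and Klf5 passed under each of 17 alternatives, and Klf6 under 7 of them. The line, the donor of the medium and the step of transfer change together here and cannot be told apart.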

How the results depend on the processing

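With 3 libraries a group, calls near the threshold move with single libraries. Counting error was largest for Klf2 in KPC4, which was far from the threshold (edgeR, adjusted p = 0.865). In PSC4, Klf4, Klf5, Klf9, Klf11 and Klf13 passed under all 12 alternatives, and the count of Klf genes ran from 5 to 8, with 8 under the replicate block, where Klf2 (adjusted p = 0.0422) and Klf3 (0.0373) joined. The values did not pair the PSC4 libraries by number. Beyond the genes named with it in the results and here, the block changed no call of a Klf gene. All genes called in PSC4 ran from 4061, without Gem-SU replicate 2, to 6826 when 1 library was left out, against 6177. In KPC4 the count over all genes was 823 with DESeq2, 1171 with the replicate block and 610 with 1 fit over 12 libraries, and from 0 to 1129 with 1 library left out, and that of Klf genes was 3, 5 and 3, and from 0 to 3. The difference between lines called 1343 genes, 2140 with DESeq2, 2988 with the block and from 610 to 1993 with 1 library left out, and Klf genes numbered 7 with the block and from 3 to 7. Without a library fewer samples enter the fit. For the other settings the cause was not tested. Signs turned only for values near 0, which passed nowhere. In KPC4 Klf2 ran from -6.11e-05 to 0.17 with 1 library left out, against 0.096. Between control lines Klf10 was -0.027 with DESeq2's size factors and with DESeq2, -0.053 without the filter and -0.00404 with the block, and ran from -0.20 to 0.072 with 1 library left out. There Klf11 ran from -0.011 to 0.19 and Klf4 from -0.22 to 0.091. The block between control lines also joins same-numbered libraries across the lines, a pairing that was not checked. DESeq2's size factors shifted the median over all genes by between -0.031 and 0.015, and no setting changed the sign of a Klf gene called in the same comparison.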
